A study of Rattus norvegicus with 6 samples.

Results

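The neurotrophins and the glial cell line-derived neurotrophic factor (GDNF) family are secreted proteins that keep neurons alive and shape their axons and synapses. The 8 genes described here were chosen by name, with earlier results of these data known: the ligands Bdnf, Ntf3, Gdnf and Artn and the receptors Ntrk2, Ntrk3, Ngfr and Ret. They are 8 of the 20530 singly named genes measured. For a gene with several rows in the deposited table, the row with the highest mean over the 6 arrays stands for it.

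Gene expression was measured with Affymetrix arrays, 1 per animal, in lumbar spinal cord of Sprague-Dawley rats, a common outbred strain. The lidocaine group held 3 rats given 20 µL of 10% lidocaine, a local anaesthetic that blocks sodium channels, into the intrathecal space around the cord. The control group held 3 rats that received nothing, so the drug cannot be told apart from the injection. Cord of levels L2 to L6 was collected on day 4 in all rats, and the age of the animals was not given in the sources used here. Each array came from a different rat, so an SD given is the spread between animals. The SE and the interval given with a log2 change come from the moderated fit of limma. That fit also draws on the variances of the other genes, so they are not the spread between these rats alone.

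Mature brain-derived neurotrophic factor (BDNF) acts through the receptor kinase TrkB, encoded by Ntrk2, and neurotrophin-3 acts mainly through TrkC, encoded by Ntrk3. All neurotrophins also bind p75, encoded by Ngfr, a receptor of the tumour necrosis factor receptor family that prefers the uncleaved precursors when it is joined by sortilin. GDNF and artemin, encoded by Gdnf and Artn, bind co-receptors of the GFR-alpha family and signal through the receptor kinase RET. In the cord, BDNF and TrkB are known for their part in pain and plasticity, GDNF for the survival of motor neurons, and p75 for its return on Schwann cells after nerve injury.

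With 3 rats in each group, 4 of the 8 genes passed the threshold of limma's test, an adjusted p of 0.05, which is 50% of them against 23.7% of all genes tested. Since the genes were chosen with earlier results known, that share is not independent of the choice. Without control rat 2 the count was 1 of the 8 while 2754 of the 20530 genes were called, and without control rat 3 or lidocaine rat 2 it was 2 of the 8. Ngfr and Gdnf rose, where 9.70% of all genes rose, and Ntrk2 and Ntrk3 fell, where 14.0% of all genes fell. Bdnf, Ntf3, Artn and Ret did not pass. In the same 4 genes of the 8 the values of the groups did not overlap, which was so for 40.5% of all genes. The median log2 change of the 8 genes was 0.027, against -0.0095 over all genes. A p adjusted with Benjamini-Hochberg over all 20530 genes is given throughout, and values are RMA summaries on the log2 scale, on which 1 unit is a doubling.

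**Figure D1:**
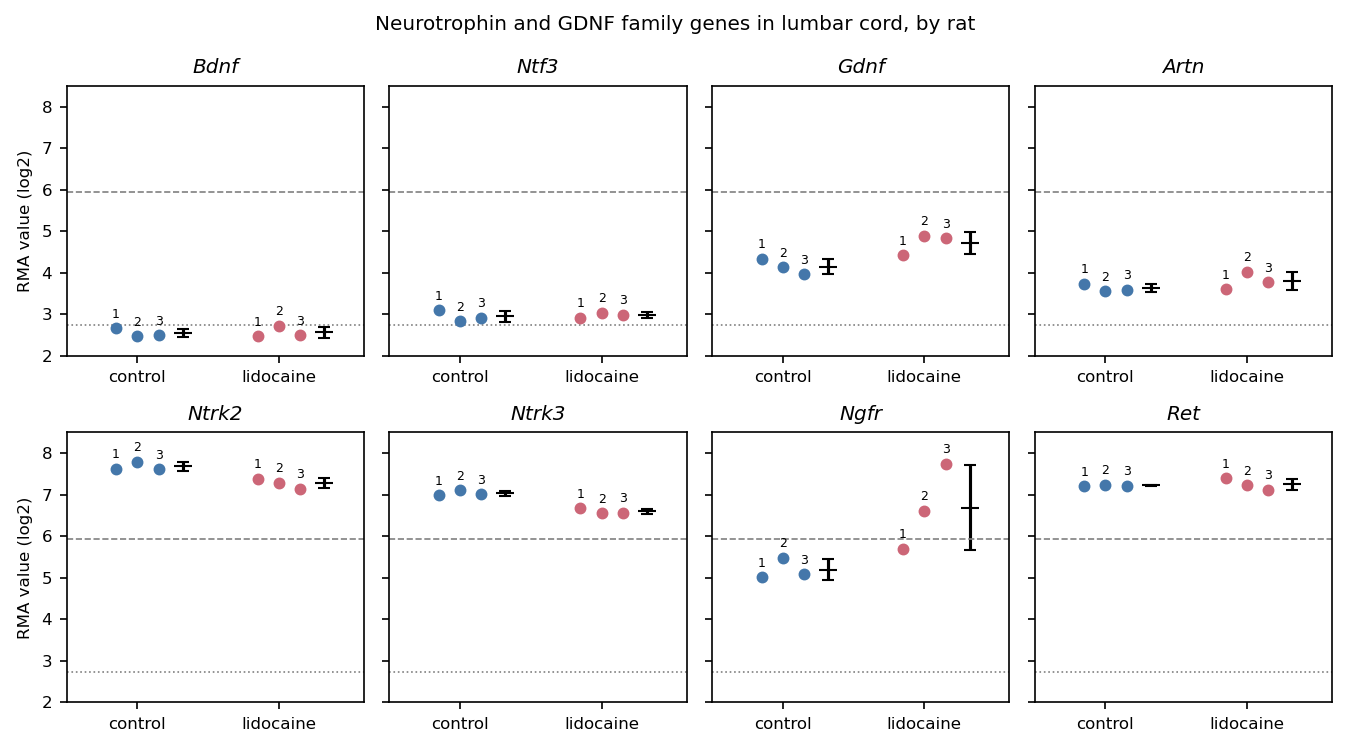
RMA values (log2) of the 8 genes in each rat, with the rat's number beside its point and the group mean and SD (n = 3) in black; the dotted and dashed lines are the median and the 95th percentile of the negative control rows, averaged over the 6 arrays. Bdnf lies at the dotted line in both groups, and Ngfr in the lidocaine rats spans 5.70 to 7.75.

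The control rows of the arrays differed between the groups. The median of the positive control rows was 6.82 to 6.96 in the control rats and 6.69 to 6.74 in the lidocaine rats. Pearson correlations over the named genes, which are not independent, were 0.9925 to 0.9972 between rats of 1 group and 0.9781 to 0.9849 between rats of different groups. Of the 1153 negative control rows, the 95th percentile was at 5.79 to 5.87 in the control rats against 5.99 to 6.06 in the lidocaine rats. A gene below that percentile on an array is called not above the negative controls there. This held on all 6 arrays for Bdnf, Ntf3, Gdnf and Artn, and for Ngfr on all 3 control arrays and in lidocaine rat 1. For a gene below it on all 6 arrays no fold is given, and its log2 difference describes the measured values and does not limit the change of the transcript. The 8 neuron markers averaged 8.71 to 8.78 in the controls and 8.09 to 8.43 after lidocaine, and these markers do not tell lumbar cord from other nervous tissue. The number of arrays limits the precision.

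Among the ligands, Bdnf lay at the level of the negative controls in both groups. Its values were 2.67, 2.48 and 2.50 in control rats 1 to 3 and 2.48, 2.73 and 2.50 in lidocaine rats 1 to 3. The groups overlapped, and between 42.1% and 50.5% of the negative control rows lay below Bdnf on each array. Bdnf did not pass (adjusted p = 0.909), and since both group means, 2.55 ± 0.11 and 2.57 ± 0.14 (SD, n = 3), lay below the mean negative control median of 2.71 and 2.77 in those groups, no difference is given. A change in a transcript that these probes do not measure above background would not be seen.

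Ntf3 was nearly as dim. It measured 3.10, 2.84 and 2.92 in the controls and 2.92, 3.04 and 2.99 after lidocaine, with 52.2% to 62.5% of negative control rows below it. All 3 lidocaine values fell within the range of the controls. The log2 difference was 0.029 with a 95% interval of -0.16 to 0.22 (limma, adjusted p = 0.846, n = 3 per group), and as for Bdnf a change of the transcript at this level would not be seen.

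Gdnf, the founding ligand of its family, rose by limma's test in values that were not above the negative controls. Its brightest row read 4.34, 4.14 and 3.97 in the controls and 4.43, 4.89 and 4.84 in the lidocaine rats. Each lidocaine value lay above each control value, by a narrow margin for lidocaine rat 1 against control rat 1. The log2 change of the measured values was 0.57 ± 0.14 (SE, n = 3 per group, limma adjusted p = 0.023). As a share of negative control rows below it, Gdnf stood at 83.6%, 80.4% and 76.5% in the controls and 80.9%, 88% and 87.3% after lidocaine, and on that scale lidocaine rat 1 lay within the range of the controls. A dimmer row also named Gdnf and read 2.53, 2.53 and 2.64 in the controls and 2.31, 2.95 and 2.80 after lidocaine. In that row the groups overlapped (log2 change 0.12, adjusted p = 0.639 in a limma fit over all 21560 singly named rows). The call of Gdnf was lost with the mean of both rows (log2 change 0.35, adjusted p = 0.11) and without control rat 2, control rat 3, lidocaine rat 2 or lidocaine rat 3 (adjusted p 0.0762, 0.0817, 0.0744 and 0.0629). Over all alternatives its adjusted p ran from 0.0067 to 0.11.

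Artn, the artemin gene, did not pass. The controls read 3.74, 3.56 and 3.59 and the lidocaine rats 3.61, 4.03 and 3.78. Rats 2 and 3 of the lidocaine group lay above every control and rat 1 within their range. The log2 difference was 0.18 with a 95% interval of -0.081 to 0.43 (limma, adjusted p = 0.315, n = 3 per group), with 68.9% to 76.7% of the negative control rows below Artn.

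The promoter windows of the GDNF family ligands are shown because Gdnf was the only one of the 4 ligands that passed. Both are RefSeq sequences of the rat assembly GRCr8, from 250 bases before to 50 bases after the annotated start, read 5′ to 3′ on the strand of the gene. Gdnf lies at chr2:58621077-58621376 on the plus strand and Artn at chr5:136753408-136753707 on the minus strand. Capitals mark matches to the motifs searched.
Gdnf: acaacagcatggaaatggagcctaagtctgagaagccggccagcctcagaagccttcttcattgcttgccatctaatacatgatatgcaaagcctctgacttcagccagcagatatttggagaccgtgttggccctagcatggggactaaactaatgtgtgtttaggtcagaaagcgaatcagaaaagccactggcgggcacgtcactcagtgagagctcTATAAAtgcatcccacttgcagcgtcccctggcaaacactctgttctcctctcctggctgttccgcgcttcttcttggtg
Artn: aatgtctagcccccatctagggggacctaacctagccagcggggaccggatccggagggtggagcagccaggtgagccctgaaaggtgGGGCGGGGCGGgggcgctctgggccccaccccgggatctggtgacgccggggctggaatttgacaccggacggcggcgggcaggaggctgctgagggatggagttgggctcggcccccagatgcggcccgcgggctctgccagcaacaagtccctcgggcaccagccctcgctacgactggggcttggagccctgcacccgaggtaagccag
Both strands were searched. In the Gdnf window the TATA motif, with the letters TATAAA, was the only match, starting 30 bases before the annotated start, and 14.2% of all 33469 windows of this length held it. The Artn window held the SP1 motif, with the letters GGGCGG, at 2 places in tandem that share a base, and 33.1% of windows held it. Neither window matched the cAMP response element, searched as TGACGTCA and held by 1.83% of windows. Neither matched the AP-1 motif, searched as TGANTCA and held by 7.33% of windows. The E-box, searched as CACGTG, was held by 6.42% of windows but by neither of these, and so was the STAT motif, searched as TTCNNNGAA, with 8.87%. The Gdnf window was 50.7% and the Artn window 70.3% G or C. Windows were found for 5 of the 8 genes, which were Bdnf, Ntf3, Gdnf, Artn and Ret.

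Among the receptors both Trk kinase genes of the 8 fell. Ntrk2, the TrkB gene, read 7.63, 7.80 and 7.62 in the controls and 7.39, 7.29 and 7.15 after lidocaine. Every lidocaine rat lay below every control, and rat 3 was the lowest. Ntrk2 was 1.32-fold lower (log2 change -0.40 ± 0.086, SE, n = 3 per group, limma adjusted p = 0.0134). The call was lost by a small margin without control rat 2, the highest control (adjusted p = 0.0504, log2 change -0.35), and over all alternatives adjusted p ran from 0.0078 to 0.0504. TrkB is made by neurons in a full-length form with a kinase and by astrocytes mainly in a truncated form without one, and the single summary value for Ntrk2 does not tell these forms apart.

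Ntrk3, the TrkC gene, read 6.99, 7.11 and 7.01 in the controls and 6.67, 6.56 and 6.57 in the lidocaine rats. The gap between the groups was wider than the spread within either of them, which was 0.12 in the controls and 0.11 after lidocaine. Ntrk3 was 1.35-fold lower (log2 change -0.44 ± 0.066, SE, n = 3 per group, limma adjusted p = 0.00413). It was the one gene of the 8 that changed in all 11 alternatives tried, with adjusted p from 0.0028 to 0.0208.

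The means of the neuron, astrocyte and oligodendrocyte marker lists were lower in the same rats, and in bulk tissue fewer cells of a type and less RNA per cell cannot be told apart. Relative to the control mean, Ntrk2 lay at -0.29, -0.39 and -0.53 on the log2 scale in lidocaine rats 1 to 3 and Ntrk3 at -0.37, -0.48 and -0.46. The mean of 8 neuron markers lay at -0.32, -0.41 and -0.67 in those rats, and 7 of the 8 fell. Their summed level was 12.36 to 12.42 (log2) in the controls and 11.80 to 12.10 after lidocaine. Of the neuron markers, the nuclear protein gene Rbfox3 had a log2 change of -0.53 and the synaptic gene Snap25 of -0.45. Of 5 measured astrocyte markers 3 fell, and their mean lay at -0.30, -0.27 and -0.59, with a summed level of 11.17 to 11.26 in the controls and 10.60 to 11.02 after lidocaine. Aldh1l1 of that list fell in values that were not above the negative controls on any array. Slc1a3 of that list did not pass (log2 change 0.059), and all 8 markers of a separate list for reactive astrocytes rose. Of 4 measured oligodendrocyte markers 3 fell, and their mean lay at -0.45, -0.50 and -0.58, with a summed level of 10.70 to 10.80 against 10.24 to 10.48. The part of these cell types in the falls of Ntrk2 and Ntrk3 was not tested.

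**Figure D2:**
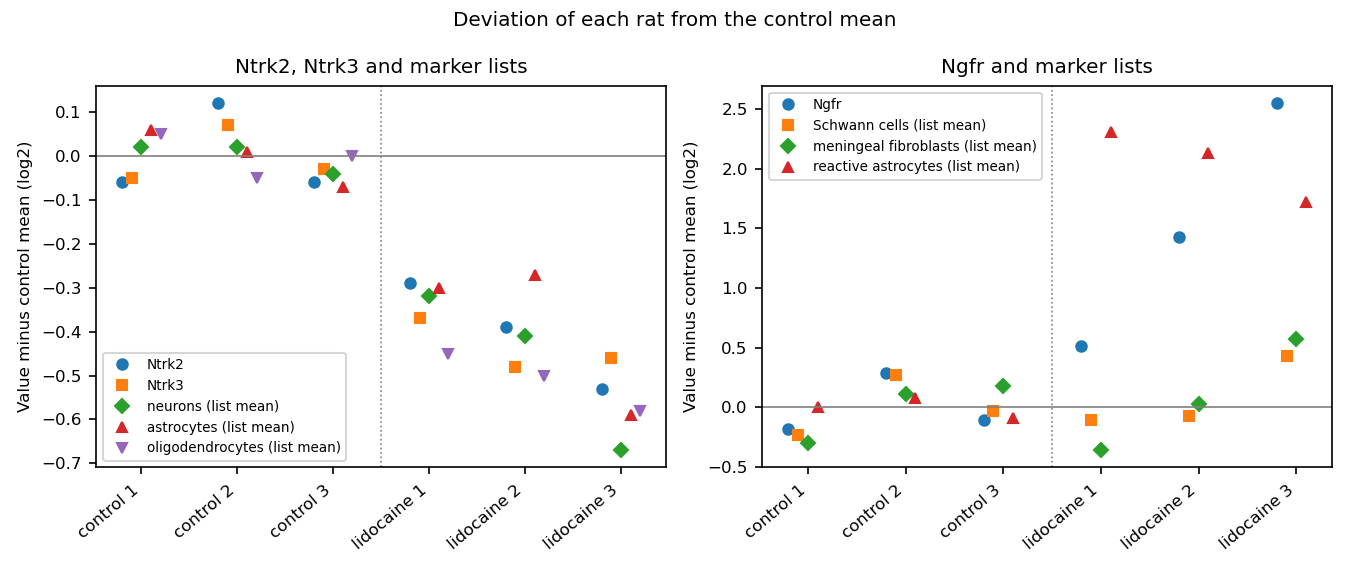
Each rat's value minus the control mean (log2) for Ntrk2, Ntrk3 and the means of 3 marker lists on the left, and for Ngfr and the means of 3 marker lists on the right. In the lidocaine rats Ntrk2 and Ntrk3 lie between -0.29 and -0.53, the marker means on the left lie between -0.27 and -0.67, and Ngfr lies at 0.51, 1.43 and 2.55.

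Ngfr, the p75 gene, had the largest change of the 8. It read 5.01, 5.48 and 5.09 in the controls and 5.70, 6.62 and 7.75 in lidocaine rats 1 to 3. No lidocaine value fell into the range of the controls, but the lidocaine rats differed from each other by up to 2.05 on the log2 scale while the controls spanned 0.47. Ngfr rose (log2 change 1.49 ± 0.44, SE, 95% interval 0.48 to 2.51, n = 3 per group, limma adjusted p = 0.0431). Its control values, at a mean of 5.20, were not above the negative controls, and neither was its value in lidocaine rat 1. No bound on the fold is therefore given. With each control array set to the 95th percentile of its negative control rows, Ngfr was 1.8-fold higher, from a lidocaine mean of 6.69 that includes rat 1. By size of rise it ranked 154 among the 20530 genes. The SD of Ngfr among the lidocaine rats, 1.02, was above that of 99.9% of genes. Leaving out control rat 1, 2 or 3, or rat 2 of the lidocaine group, ended the call (adjusted p 0.109, 0.088, 0.119 and 0.0984). So did another variance prior, with limma's trend and robust options set together (0.0657). It held without lidocaine rat 1 (log2 change 1.99, adjusted p = 0.00642) and without lidocaine rat 3 (0.97, adjusted p = 0.0424). Over all alternatives its adjusted p ran from 0.00642 to 0.119.

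Schwann cells of the nerve roots, which make p75 after injury, and fibroblasts of the meninges were represented by marker lists. Of 7 measured Schwann cell markers, Gldn rose (log2 change 1.72) and 6 did not pass. Their mean was 6.57, 7.07 and 6.77 in the controls and 6.70, 6.74 and 7.23 in lidocaine rats 1 to 3, and their summed level was 10.95 to 11.30 (log2) in the controls and 10.85 to 11.25 after lidocaine. Of 6 meningeal fibroblast markers, Dcn rose (log2 change 0.71) and 5 did not pass, and the mean was 7.34, 7.75 and 7.82 in the controls and 7.28, 7.66 and 8.21 in lidocaine rats 1 to 3. The summed level of that list was 10.35 to 10.82 in the controls and 10.73 to 11.30 after lidocaine. Both means were highest in lidocaine rat 3, which also had the highest Ngfr, and so were those of 5 other marker lists of the 16, for primary sensory neurons, microglia, lymphocytes, endothelium with pericytes, and dividing cells. The primary sensory neuron mean was 3.63 to 3.70 in the controls and 3.58 to 3.90 after lidocaine. Of its 8 markers 0 were called by limma and 0 had an unadjusted p under 0.05. Only Tac1 of them was above the negative controls, on 1 control array. The lymphocyte mean was 3.06 to 3.15 in the controls and 3.16, 3.32 and 3.50 in lidocaine rats 1 to 3. Only Cd4 of that list was above the negative controls on any array. Cd4 read 5.73, 6.19 and 7.20 in lidocaine rats 1 to 3 and did not pass (limma adjusted p = 0.516). Among the controls Ngfr was highest in rat 2. So were the means of 6 of the 16 marker lists, for motor neurons, reactive astrocytes, microglia, Schwann cells, endothelium with pericytes, and ependyma. The fibroblast mean was highest in rat 3. In lidocaine rats 1 and 2 the Schwann cell mean lay at -0.11 and -0.07 of the control mean while Ngfr lay at 0.51 and 1.43. That mean includes Gldn, at 5.98 to 6.90 in the controls and 8.44, 7.99 and 8.22 in lidocaine rats 1 to 3. Gldn was highest in lidocaine rat 1, where Ngfr was lowest. The log2 changes of the other 6 Schwann cell markers ran from -0.43 to 0.21. All 8 reactive astrocyte markers rose, with a mean of 5.80 to 5.97 in the controls and 8.19, 8.02 and 7.60 in lidocaine rats 1 to 3, lowest where Ngfr was highest. Their summed level was 10.46 to 10.66 in the controls and 11.83 to 12.10 after lidocaine. Only Cd44 of that list was not above the negative controls on any array. The part of these cells in the rise of Ngfr was not tested.

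Ret, the kinase shared by the GDNF family, did not pass. It read 7.21, 7.24 and 7.22 in the controls, which spanned 0.03, and 7.40, 7.23 and 7.12 after lidocaine. Lidocaine rat 1 lay above the controls, rat 3 below them and rat 2 among them. The log2 difference was 0.025 with a 95% interval of -0.16 to 0.21 (limma, adjusted p = 0.864, n = 3 per group). Like Ntrk2 and Ntrk3, Ret was brighter than at least 96.4% of the negative control rows on every array, so its values were clear of most of the background. Motor neurons are a main site of RET in the cord, and of 6 motor neuron markers 3 fell and the others did not pass, with means of 5.87 to 5.90 in the controls and 5.66, 5.58 and 5.41 in lidocaine rats 1 to 3. Their summed level was 9.14 to 9.25 (log2) in the controls and 8.62 to 8.94 after lidocaine.

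**Figure D3:**
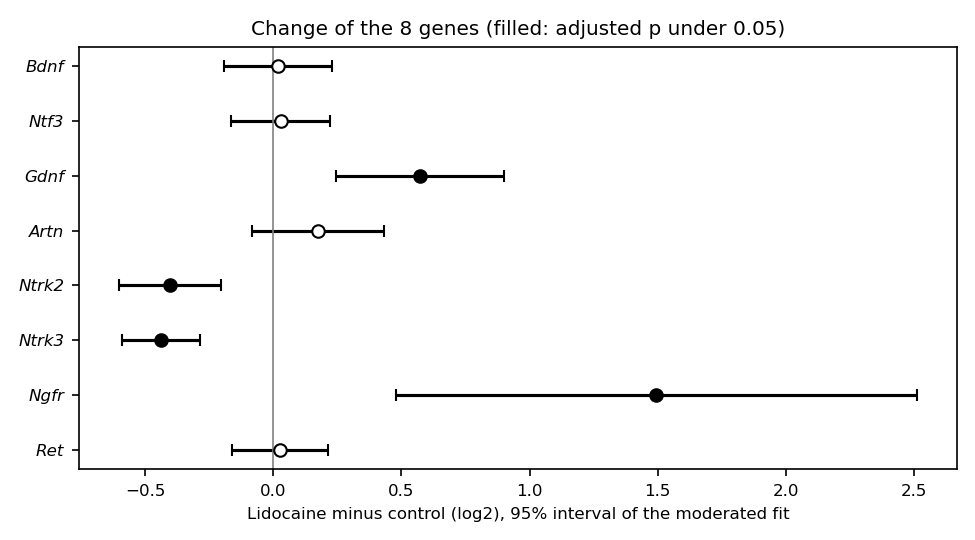
Log2 change of each of the 8 genes, lidocaine minus control, with the 95% interval of the moderated fit (3 rats per group); filled points passed an adjusted p of 0.05. The intervals of Gdnf and Ngfr lie above 0 and those of Ntrk2 and Ntrk3 below 0, and the interval of Ngfr, 0.48 to 2.51, is the widest.

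Genes with the profile nearest to each changed gene were found by the root mean square distance over the 6 arrays, each profile centred on its control mean, among 18828 genes. Nearest to Ntrk2 were Sphkap, Tmem62 and Znf846, at distances of 0.019, 0.020 and 0.023. Sphkap, which encodes an anchoring protein of protein kinase A, read 5.39, 5.54 and 5.37 in the controls and 5.10, 5.03 and 4.90 after lidocaine, not above the negative controls on any array. Nearest to Ntrk3 were Mapre3, Raver2 and Spred2, at 0.021, 0.023 and 0.025. Spred2, an inhibitor of the Ras and MAP kinase cascade that Trk receptors use, read 6.67, 6.79 and 6.75 in the controls and 6.39, 6.24 and 6.25 after lidocaine. The call of Mapre3 was lost with the mean of its rows (adjusted p = 0.0642, against 0.0046).

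The genes nearest to Ngfr were farther away. They were the cholesterol exporter Abca1, the matrix glycoprotein Thbs4 and the transcription factor Runx2, at distances of 0.24, 0.25 and 0.25. Abca1 read 5.80, 6.03 and 5.90 in the controls and 6.86, 7.40 and 8.16 in lidocaine rats 1 to 3, and Thbs4 read 4.98, 5.31 and 5.31, then 6.05, 7.03 and 7.78. In each of them lidocaine rat 3 was the highest and rat 1 the lowest of its group, as for Ngfr. Abca1 rose 2.95-fold and Thbs4 by a log2 change of 1.76 (limma adjusted p = 0.00762 and 0.0131), while Runx2 did not pass (log2 change 1.29, adjusted p = 0.0619). Abca1 was above the negative controls on 2 control arrays and all 3 lidocaine arrays, so its fold describes the measured values. Thbs4 was not above the negative controls in the control rats or in lidocaine rat 1, and Runx2 was not above them on any array. Nearest to Gdnf were Fhl2 at 0.083 and the ribosomal protein gene copies Rpl10al2 and Rps19-ps4 at 0.075 and 0.088, and such copies can share probes with their parent genes. With 6 arrays in 2 groups, many genes that changed by a like amount come out near to each other.

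The other genes of these pathways were taken from 7 lists of 112 genes, of which 95 were measured. These lists too were chosen with earlier results of these data known. Of the 95, 15 rose, 15 fell and 65 did not pass, so 31.6% changed against 23.7% of all genes, with a median log2 change of -0.0067 against -0.0095. After median centring of the arrays 14 rose and 21 fell. Of the 95, 43 were not above the negative controls on any array. Gfra3, the co-receptor of artemin, was not analysed here. Of the 4 other ligands measured, none passed: the log2 changes were 0.055 for neurturin, Nrtn, 0.12 for Ntf4, 0.18 for Pspn and 0.24 for Gdf15 (limma adjusted p 0.656, 0.456, 0.445 and 0.178), and at an unadjusted p under 0.05 the count was also 0. None of these 4 was above the negative controls on any array, so a change of their transcripts could be missed.

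Among 13 other receptors and co-receptors 5 fell, 0 rose and 8 did not pass by limma's adjusted p, with a median log2 change of -0.17. At an unadjusted p under 0.05, 6 were lower and 2 higher. Ncam1, the adhesion molecule that can serve as a receptor for GDNF, read 9.09, 9.16 and 9.13 in the controls and 8.81, 8.68 and 8.69 after lidocaine and was 1.32-fold lower (log2 change -0.40, limma adjusted p = 0.00491). Sdc3, a heparan sulfate proteoglycan that binds GDNF, was 1.38-fold lower (adjusted p = 0.00631), and Lingo1, a partner of p75 in the Nogo receptor complex, had a log2 change of -0.32 (adjusted p = 0.0103). Sorcs3, a sortilin relative, had a log2 change of -0.44 (adjusted p = 0.0119), a call lost with the mean of its rows (log2 change -0.18, adjusted p = 0.0709). Lingo1 and Sorcs3 were not above the negative controls on any array.

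Of the 4 measured co-receptors of the GFR-alpha family, 1 fell. Gfra4 and Gfral did not pass (log2 change -0.12 and 0.056, limma adjusted p = 0.306 and 0.758) and were not above the negative controls on any array. Gfra2, the co-receptor preferred by neurturin, fell from 7.06, 7.51 and 7.20 in the controls to 6.37, 6.48 and 6.82 in the lidocaine rats (log2 change -0.70, limma adjusted p = 0.0126). Gfra1, the co-receptor preferred by GDNF, read 7.49, 7.73 and 7.57 in the controls and 7.87, 7.94 and 8.60 after lidocaine, with no overlap between the groups. Its log2 difference of 0.54 did not pass (95% interval 0.12 to 0.96, adjusted p = 0.0675). These 4 were named after their values were seen, and differences between them were not tested. Sort1, the sortilin gene, had a log2 change of -0.18 (adjusted p = 0.138), and it too was named after its values were seen.

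Of 15 measured genes that process neurotrophins or form their protease cascade, 3 rose and 2 fell. Plau, the urokinase that activates plasminogen, read 3.67, 3.69 and 3.76 in the controls and 5.12, 5.08 and 5.20 after lidocaine, a rise in measured values that were not above the negative controls (log2 change 1.43 ± 0.064, SE, limma adjusted p = 3.56e-05). Furin, which cleaves precursors of neurotrophins inside the cell, rose at least 1.23-fold (adjusted p = 0.00152), and Mmp9, a matrix protease that can cleave the BDNF precursor, had a log2 change of 1.38 (adjusted p = 0.0121). Like Plau, Mmp9 was not above the negative controls on any array. The prohormone convertase gene Pcsk2, a gene of neurons and endocrine cells, was 1.56-fold lower (adjusted p = 0.00929). The median of this list was 0.12. Microglia, macrophages and neutrophils can make Plau and Mmp9, and of their markers 4 of 5, 6 of 6 and 4 of 5 rose. Of the markers that rose, the macrophage genes Cd163 and Ms4a7 were not above the negative controls on any array. The same held for the neutrophil genes S100a8, Mmp8 and Csf3r. The summed levels were 8.93 to 9.08 in the controls and 9.78 to 9.97 after lidocaine for microglia, 6.81 to 6.88 and 8.95 to 9.17 for monocytes and macrophages, and 6.28 to 6.74 and 8.13 to 8.24 for neutrophils. Their part in these rises was not tested.

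**Figure D4:**
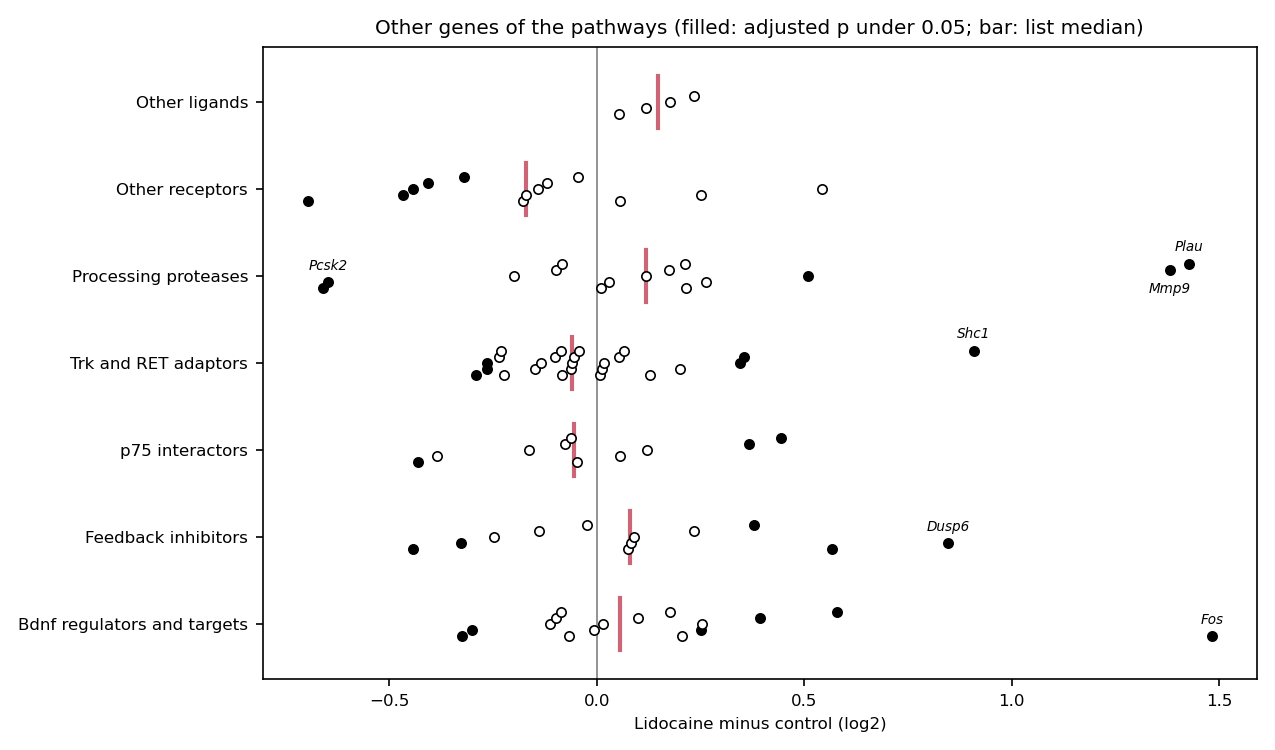
Log2 change, lidocaine minus control, of the 95 other pathway genes in their 7 lists; filled points passed an adjusted p of 0.05, and the bar is the median of a list. None of the 13 other receptors passed with a rise, though some points lie above 0, and the largest rises are those of Fos, Plau and Mmp9.

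Inside the cell, 3 of 25 adaptor and signalling genes rose and 3 fell, with a median of -0.058. Shc1, an adaptor that links Trk receptors and RET to Ras, rose 1.88-fold from 5.52, 5.79 and 5.65 to 6.43, 6.51 and 6.75 (limma adjusted p = 0.00137). It was above the negative controls on only 1 control array, so this fold describes the measured values. Nras rose 1.28-fold and the Trk adaptor Sh2b2 by a log2 change of 0.35 (adjusted p = 0.00683 and 0.00992), and Kidins220, a scaffold of Trk receptors, fell by 0.26 on the log2 scale (adjusted p = 0.0247). Of 12 feedback inhibitors 3 rose and 2 fell, with a median of 0.079. The MAP kinase phosphatase gene Dusp6 and the ubiquitin ligase gene Cblb rose, with log2 changes of 0.85 and 0.57 (adjusted p = 0.00371 and 0.00789), while Spred2, 1.36-fold lower, and the phosphatase gene Ptprs, 1.25-fold lower, both fell (adjusted p = 0.00479 and 0.0169). Dusp6, Cblb and Sh2b2 were not above the negative controls on any array. Leaving out any 1 control rat, or rat 2 or 3 of the lidocaine group, ended the call of Kidins220 (adjusted p 0.0595 to 0.0864). Leaving out rat 2 of either group, or control rat 3, ended that of Ptprs (adjusted p 0.0546 to 0.0646).

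Of 10 measured interactors of p75, 2 rose and 1 fell, with a median of -0.055. Nfkb1, a subunit of the transcription factor NF-kB to which p75 can signal, rose 1.36-fold from 5.76, 5.89 and 5.84 to 6.31, 6.30 and 6.21 (limma adjusted p = 0.00385). Nfkb1 too was above the negative controls on only 1 control array, so its fold describes the measured values. Ripk2 had a log2 change of 0.37 and Bex3, which binds the death domain of p75, was 1.35-fold lower (adjusted p = 0.0256 and 0.0196). Ripk2 was above the negative controls in lidocaine rat 2 only, so no fold is given for it. Leaving out any 1 control rat, or rat 1 or 2 of the lidocaine group, ended the call of Ripk2 (adjusted p 0.0548 to 0.0912), and leaving out rat 1 or 2 of the controls ended that of Bex3 (0.0604 to 0.066).

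Of 16 transcription factors that act on Bdnf and activity genes that BDNF can induce, 4 rose and 2 fell, with a median of 0.057. Fos rose from 4.38, 4.69 and 4.26 to 5.79, 6.19 and 5.80 (log2 change 1.48, limma adjusted p = 0.000681). It was above the negative controls in lidocaine rat 2 only, so no fold is given for it. Rest, a repressor of neuronal genes that binds at Bdnf, had a log2 change of 0.39 (adjusted p = 0.00771), and Vgf, a neuropeptide precursor, of 0.25 (adjusted p = 0.0262). The synaptic gene Arc had a log2 change of -0.30 (adjusted p = 0.013). Rest, Vgf and Arc were not above the negative controls on any array. Leaving out control rat 2 ended the call of Arc (adjusted p = 0.0501). Leaving out any 1 control rat, or rat 1 or 2 of the lidocaine group, ended that of Vgf (adjusted p 0.0592 to 0.0782), and so did median centring of the arrays (0.0583).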

How the data were processed

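The authors deposited log2 values per transcript cluster, and the submitters' processing notes name RMA as their method. RMA gives all arrays the same distribution of probe values, so changes are relative within an array and can be understated for dim genes. Labelling started from 150 ng of total RNA, per the labels' protocols. For the software version, array model and build the sources used here give nothing.

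Of 63789 clusters, 21560 named 1 gene in the platform annotation. Clusters naming several genes (471) were left out, symbols were updated through gene identifiers, and the brightest cluster per gene left 20530 genes. Groups come from the sample titles. The test was limma's (version 3.58.1, R 4.3.3, defaults of lmFit and eBayes, two-sided, Benjamini-Hochberg, threshold 0.05), without a block. The sample titles number the rats within each group and do not say that the numbers pair them. The steps were tested on simulated data. An exact permutation test of 3 against 3 cannot go below p = 0.1, which Gdnf, Ntrk2, Ntrk3 and Ngfr reached.

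The 8 genes and the 7 pathway and 16 marker lists were chosen with earlier results of these data known. Other genes are named where they were among the 4 smallest p of a pathway list and past the threshold, or the 3 nearest in profile to a changed gene; exceptions and examples from marker lists are marked or given beside a result. No list was tested as a set. A fold written as at least is the lidocaine mean over control arrays set to the higher of the gene's value and the 95th percentile of the negative control rows. It is given only for Furin, which was above that percentile on all 3 lidocaine arrays. Alternatives were median centring, leaving out dim genes, mean of a gene's rows, another variance prior (limma's trend and robust options), the replicate block and leaving out each rat.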

Additional observations from a re-analysis of the deposited data

How the results depend on the processing

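Of the 8 genes, 4 changed in the main comparison and between 1 and 4 in the fits that left out 1 rat: 1 without control rat 2, 2 without control rat 3 and 2 without lidocaine rat 2. Ntrk3 was called in each of the 11 alternatives, Ntrk2 in all but the one without control rat 2, and Gdnf and Ngfr in 5 of 10 and 6 of 11. Over all genes 4867 were called, 2556 of 4996 with genes dimmer than 5.94 left out (4 of the 8 genes stayed in), and 2754 to 4335 with 1 rat left out, the lowest being 2754 without control rat 2 and 2906 without control rat 3. Rises made up 40.9% of calls and 30.1% after median centring, which kept the direction and call of Gdnf, Ngfr, Ntrk2 and Ntrk3. The pathway genes gave 30 calls, 35 after centring, 21 of 45 with the dim genes left out and 20 to 33 with 1 rat left out.

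Only differences near 0 changed sign. Bdnf was -0.029 after median centring and ran from -0.061 to 0.080 with 1 rat left out, Ntf3 was -0.019 after centring and ran from -0.029 to 0.10, and Ret was -0.023 after centring and ran from -0.052 to 0.090. None of these passed in any setting. The cause of each lost call was not tested, beyond the smaller number of rats. With the replicate number as a block (replicate block) 4005 genes, 4 of the 8 and 25 pathway genes were called, and of the pathway genes named Kidins220, Ripk2 and Vgf were not (adjusted p = 0.061, 0.0521 and 0.0748). The sample titles do not say that the numbers pair the rats. Same-numbered rats deviated from their group means with correlations of -0.063, -0.24 and 0.14 over the 20530 genes. For differently numbered rats the correlations ran from -0.22 to 0.38. Deviations from the mean of 3 rats depend on each other, so these correlations cannot show whether the rats were paired. All 74 other genes recomputed, from the pathway and marker lists and the nearest profiles, kept their direction in every alternative, and 14 lost their call in at least 1.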
